A study of Mus musculus with 16 samples.

Results

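The arrays described here come from the PV-tdTomato line, and the comparison splits them by how much parvalbumin RNA they held. Of 16 arrays in the series, 8 belong to this line, 4 from dorsal striatum and 4 from motor and somatosensory cortex. Replicates 1 and 2 of each region had a Pvalb level of 10 or more on the log2 scale and form the Pvalb-high side (4 arrays). Replicates 3 and 4 of each region had a level under 10 and form the Pvalb-low side (4 arrays). All 8 arrays carry the same labels apart from region: genotype PV-tdTomato/+ with no Cre, strain C57BL/6J, male, 30 days old. The other 8 arrays, from PVCre mice with a tdTomato reporter, serve only for ranges of levels.

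In both lines, red fluorescent cells were collected by fluorescence-activated cell sorting, 2000 cells per replicate from 2 to 4 pooled mice, and 5 ng of RNA was amplified for an Affymetrix mouse transcriptome array. A pool therefore averages over mice and over every cell the sort let through, and the labels do not say whether pools of equal number share mice. In the PV-tdTomato line a single reporter transgene marks the cells, so the reporter and not parvalbumin RNA decided which cells were taken. The values are log2 levels made by RMA, in which a difference of 1 is a doubling. Levels of different genes are read by different probes and are not compared with each other.

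Parvalbumin is a calcium-binding protein of fast-spiking GABA interneurons, which fire brief spikes at high rates. These cells rely on Kv3 potassium channels, on many mitochondria and on a coat of extracellular matrix, the perineuronal net. Oligodendrocyte precursors are the dividing glia that carry the NG2 proteoglycan; they mature through a newly formed stage into oligodendrocytes, which wrap axons, including those of cortical parvalbumin cells, in myelin.

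The arrays of each side were chosen by their Pvalb level, so its values are only a description. It had 11.38 and 11.86 in the striatal and 12.17 and 11.13 in the cortical Pvalb-high arrays, against 7.29 and 8.40 in the striatal and 6.96 and 7.19 in the cortical Pvalb-low arrays. Nearest the threshold were cortical replicate 2, at 11.13, on the Pvalb-high side and striatal replicate 4, at 8.40, on the Pvalb-low side. Every other difference between the sides comes from the same contrast and is given without a test.

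Because the split puts replicates 1 and 2 on one side and 3 and 4 on the other, anything else that these numbers share cannot be told apart from the Pvalb level. Replicate 3 also stood apart by itself. Xist, the RNA that silences one X chromosome in female cells, was at 15.93 in striatal and 16.01 in cortical replicate 3, against 5.71 to 6.04 on the other 6 arrays. The mean of 3 Y-linked genes was 5.93 and 6.10 in these arrays, against 9.38 to 9.89 on the others, although all pools are labelled male. The main counts are therefore also given without replicate 3. Array medians lay between 5.99 and 6.07. The 23 background probe sets had medians of 3.67 to 3.92, and the highest of them reached 6.61. Levels under about that highest value are called background or close to it here, which is a wide limit.

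A gene is called set apart when, in each region, both Pvalb-high arrays lay on one side of both Pvalb-low arrays and the region-adjusted mean difference was at least 1 on the log2 scale. Of 20095 genes tested, 1342 were set apart higher (6.68%) and 1015 lower (5.05%) in the Pvalb-high arrays, 11.7% in either direction. Without replicate 3 of both regions the counts were 1214 higher and 1007 lower. After quantile normalization over the 8 arrays they were 1120 higher and 1187 lower, so which direction held more genes depended on the scaling. With no minimum difference, the sides did not overlap in either region for 4245 of the 20095 genes higher and 3852 lower. A lack of overlap alone was therefore common. The median difference over all genes tested was 0.03.

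MicroRNA loci were among the genes set apart, and 6 were picked for display after their values were seen. They are the loci of miR-219a and miR-338, known from oligodendrocytes, and, as examples of loci higher in the Pvalb-high arrays, 3 loci from a cluster on chromosome 12 and Mir129-2. The mature RNA of each is printed 5′ to 3′ from RefSeq (GRCm38.p6), with the seed, bases 2 to 8, in capitals. The seed is the stretch that pairs with target messages, and no seed was shared among the 44 mature RNAs of the 29 loci set apart. The arrays read RNA from the locus, which can be the precursor or a host transcript, and do not measure the mature form. Where a locus is placed within the span of a gene below, they overlap by position, and their strands were not compared.
mmu-miR-219a-5p: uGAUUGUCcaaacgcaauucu
mmu-miR-338-3p: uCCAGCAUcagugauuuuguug
mmu-miR-665-3p: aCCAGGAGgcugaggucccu
mmu-miR-329-3p: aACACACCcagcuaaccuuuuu
mmu-miR-487b-5p: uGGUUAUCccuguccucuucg
mmu-miR-129-5p: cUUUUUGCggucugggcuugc

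The loci of miR-219 and miR-338, which are known to promote oligodendrocyte maturation, were lower in the Pvalb-high arrays. Mir219a-2, at chr2:29845631-29845727 on the minus strand within the span of Cercam, had 9.51 and 8.85 in striatal and 10.73 and 10.66 in cortical Pvalb-high arrays, against 11.40 and 12.50 in striatal and 12.56 and 12.74 in cortical Pvalb-low arrays. The sides did not overlap in either region, and the difference was -2.36 ± 0.25 (standard error, SE, n = 4 arrays a side). Mir338, at chr11:120014765-120014862 on the minus strand within the span of Aatk, had 8.41 and 8.33 in striatal and 9.18 and 9.21 in cortical Pvalb-high arrays, against 9.90 and 10.31 in striatal and 9.96 and 10.46 in cortical Pvalb-low arrays. Its sides were also separate in each region, with a difference of -1.37 ± 0.14.

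The opposite direction appeared at the imprinted miRNA cluster of distal chromosome 12, a region whose many miRNAs are known for expression in neurons. Of the 60 miRNA loci that RefSeq places between 109544588 and 109747960 on chromosome 12, 42 had a cluster annotated to a single gene and 23 of those passed the filter on low levels. These 23 included 11 set apart higher and 0 lower, with a median difference of 1.09 and a range of -0.20 to 2.77. With no filter on low levels, 13 of the 42 were set apart higher and 0 lower, with a median of 0.69. Among the other 356 miRNA loci tested, of which some had no position in RefSeq, 9 were higher and 9 lower, with a median of -0.03. The window was chosen after its values were seen, so these counts describe it and test nothing.

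Within that window, Mir665 at chr12:109586314-109586407 on the plus strand, within the span of Rtl1, had 10.55 and 11.34 in striatal and 9.65 and 10.61 in cortical Pvalb-high arrays, against 8.15 and 8.48 in striatal and 7.36 and 7.06 in cortical Pvalb-low arrays. Mir329 at chr12:109713481-109713577 on the plus strand had 11.74 and 11.67 in striatal and 10.33 and 10.94 in cortical Pvalb-high arrays, against 9.30 and 9.40 in striatal and 7.20 and 7.93 in cortical Pvalb-low arrays. Both loci were separated in each region, by 2.77 ± 0.25 for Mir665 and 2.71 ± 0.19 for Mir329. Mir487b at chr12:109727333-109727414, also on the plus strand, differed by 2.03 ± 0.27. Outside the window, Mir129-2 at chr2:94241364-94241453 on the minus strand, was at 8.20 to 9.27 in the Pvalb-high arrays, against 6.80 to 7.03, near background, in the Pvalb-low arrays.

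Genes of the fast-spiking phenotype were mostly higher in the Pvalb-high arrays. Of 29 listed genes of parvalbumin interneurons, 26 had values and passed the filter. Of these, 14 were set apart higher and 1 lower, with a median difference of 1.19 against 0.03 over all genes tested. Pvalb itself is among the 26 and the 14, and its place there was fixed by the split. Kcnc1, which encodes the Kv3.1 channel that ends spikes quickly, had 12.45 and 11.97 in striatal and 12.76 and 12.24 in cortical Pvalb-high arrays, against 9.61 and 10.16 in striatal and 9.27 and 9.16 in cortical Pvalb-low arrays. All 4 Pvalb-high values lay above all 4 Pvalb-low values, by 2.80 ± 0.18. In bulk pools, fewer cells of a type and less RNA per cell cannot be told apart.

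Ppargc1a, the coactivator PGC-1α that drives mitochondrial genes and is known to be needed for Pvalb expression, had 13.47 and 13.40 in striatal and 12.62 and 12.59 in cortical Pvalb-high arrays, against 10.90 and 11.39 in striatal and at most 10.09 in cortical Pvalb-low arrays. It differed by 2.42 ± 0.12, with no overlap. Lynx1, which restrains nicotinic receptors, differed by 2.75, Cplx1, which clamps vesicle fusion, by 2.66, and Scn1a, the sodium channel Nav1.1, by 2.22. Erbb4, the neuregulin receptor of these cells, was high on all 8 arrays, at 14.61 to 15.10 in the Pvalb-high and 13.61 to 13.90 in the Pvalb-low arrays. Syt2, the calcium sensor of fast-spiking terminals, was close to background at 6.08 to 6.51 in the Pvalb-high and 5.33 to 5.71 in the Pvalb-low arrays. The 1 listed gene set apart lower was Acan.

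**Figure D1:**
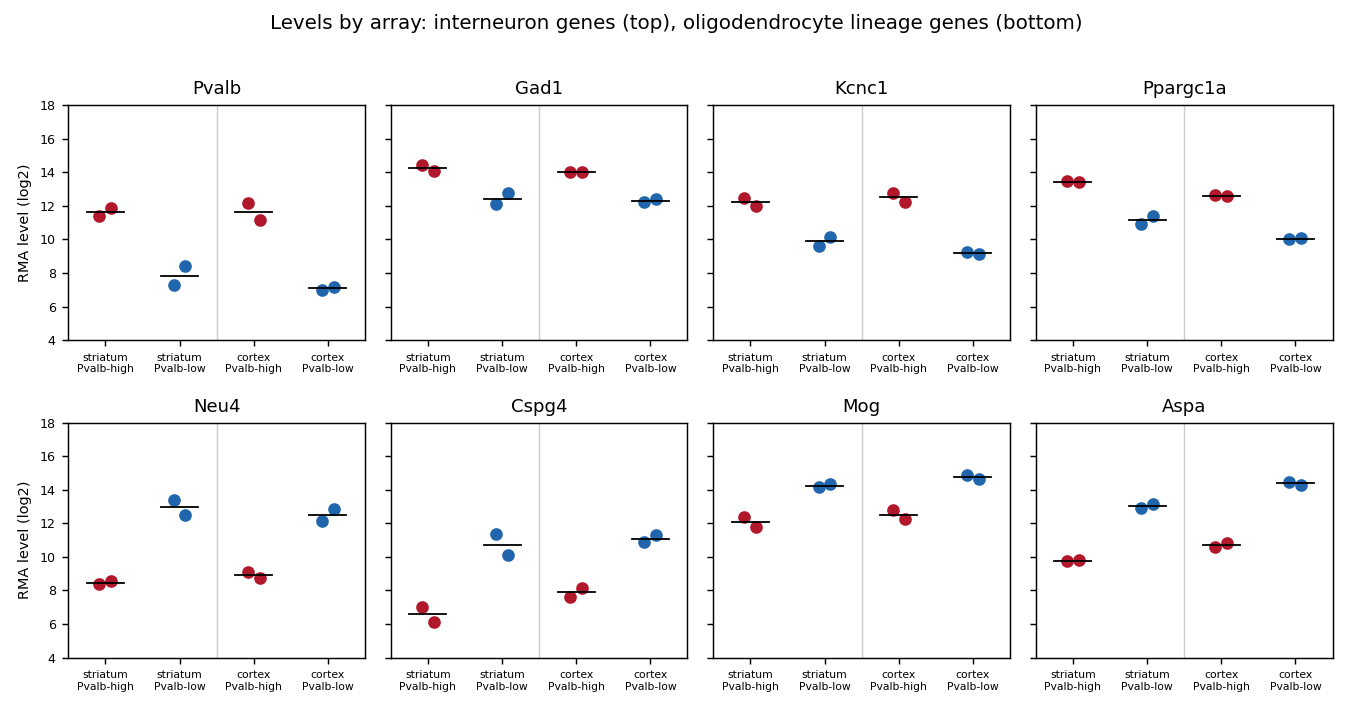
Log2 RMA level (vertical axis) of 8 genes on each of the 8 PV-tdTomato arrays, Pvalb-high left of Pvalb-low within each region; points are arrays and bars are means of 2. Kcnc1 and Gad1 lie higher in the Pvalb-high arrays and Neu4 and Mog lower in them, with no overlap in either region; for Neu4 the Pvalb-high arrays lie between 8.37 and 9.12 and the Pvalb-low arrays between 12.14 and 13.42.

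The machinery of GABA, the transmitter of these cells, was also higher. Gad1, which makes GABA, had 14.41 and 14.09 in striatal and 14.04 and 14.00 in cortical Pvalb-high arrays, against 12.09 and 12.77 in striatal and 12.20 and 12.43 in cortical Pvalb-low arrays. The difference was 1.76 ± 0.16, and Slc32a1, the vesicular GABA transporter, differed by 1.83 ± 0.17. Gad2, the sister enzyme of Gad1, and Abat, which breaks GABA down, were set apart higher as well, making 4 of 8 genes tested higher and 0 lower in this list (10 listed, median 0.91). Gad1 and Slc32a1 stood far above background on both sides, at 12.09 or more and 11.39 or more.

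Transcription factors and other lineage genes of the medial ganglionic eminence, the embryonic origin of these interneurons, ran in both directions. Of 15 tested (18 listed), 8 were set apart higher and 2 lower, with a median of 1.17. Lhx6, which specifies the lineage, had 9.55 and 9.61 in striatal and 7.94 and 7.40 in cortical Pvalb-high arrays, against 7.80 and 8.16 in striatal and 6.57 and 6.71 in cortical Pvalb-low arrays. Maf differed by 2.24, Mef2c by 1.95 and Dlx5 by 1.88. The members set apart lower were Sox6, at -1.78 ± 0.15, and Elmo1, at -1.26; Sox6 is also known as a factor of oligodendrocyte precursors, and Elmo1 as a regulator of cell migration.

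Genes that all neurons share were higher along with these. Of 19 pan-neuronal genes tested (20 listed), 16 were set apart higher and 0 lower, with a median of 1.60. Snap25, a fusion protein of synaptic vesicles, was at 17.31 to 17.87 in the Pvalb-high and 15.78 to 16.39 in the Pvalb-low arrays, and Stmn2, a regulator of axonal microtubules, differed by 2.47. Of 27 vesicle release genes tested (29 listed), 19 were higher and 1 lower, with a median of 1.26. The exception, Unc13c, a priming factor, differed by -1.23.

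Ion channels followed the same order. Of 28 neuronal potassium channel genes tested (30 listed), 18 were set apart higher and 1 lower, with a median of 1.31. Kcnab3, an accessory subunit, differed by 2.09, whereas Kcna1, the Kv1.1 subunit of axons, was the member set apart lower, at 13.61 to 14.05 in the Pvalb-high and 14.54 to 15.52 in the Pvalb-low arrays. Of 20 sodium and calcium channel genes tested (22 listed), 12 were higher and 0 lower, with a median of 1.18; Scn2b, an accessory sodium channel subunit, differed by 2.30. GABA-A receptor subunits had 6 of 9 tested higher and 0 lower (13 listed, median 1.23). Glutamate receptor subunits had 6 of 17 higher and 0 lower (20 listed), but their median was only 0.11, and -0.03 after quantile normalization; Gria1, an AMPA receptor subunit, differed by 2.35 and was the highest of them.

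**Figure D2:**
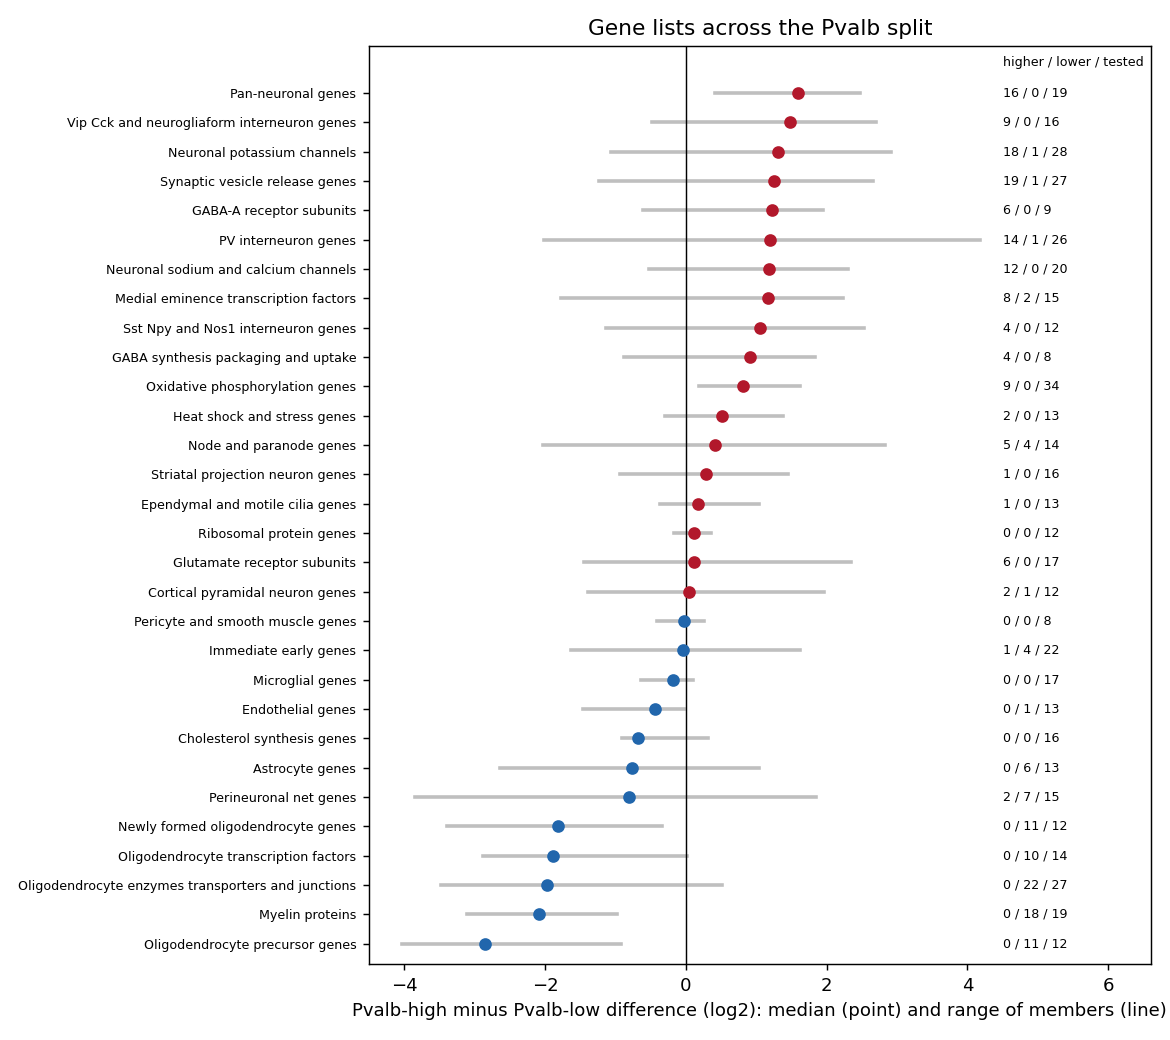
Region-adjusted difference, Pvalb-high minus Pvalb-low, in log2 units (horizontal axis), for each gene list (rows); the point is the median, the line the range of tested members, and the figures at right count members set apart higher, lower and tested. Pan-neuronal genes have a median of 1.60 and potassium channels 1.31, whereas myelin proteins have -2.08 and oligodendrocyte precursor genes -2.86.

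Oxidative phosphorylation genes, which encode the respiratory chain, shifted less. Of 34 tested (36 listed), 9 were set apart higher and 0 lower, with a median of 0.81, and every one of the 34 differences was positive, from 0.19 to 1.63. After quantile normalization the median was 0.48. Ndufa4, a subunit of the chain, had the largest difference, with 16.18 and 16.81 in striatal and 15.58 and 15.10 in cortical Pvalb-high arrays, against 13.94 and 14.87 in striatal and 13.98 and 14.38 in cortical Pvalb-low arrays. The 12 ribosomal protein genes tested (30 listed) had 0 set apart in either direction and a median of 0.11, which was -0.07 after quantile normalization and -0.02 without replicate 3.

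Among the genes set apart, leaving out Pvalb and predicted models, the 12 largest differences on the higher side belonged to Glp1r, Gpr83, Kcnc2, Galntl6, Lratd1, Lgi2, Cntnap4, Cntnap2, Tuba8, Kcnc1, Galnt14 and St8sia5, with differences of 2.78 to 3.21. Glp1r, the receptor of glucagon-like peptide 1, had 10.38 and 10.76 in striatal and 10.47 and 9.59 in cortical Pvalb-high arrays, against 7.14 and 7.33 in striatal and 6.77 and 7.12 in cortical Pvalb-low arrays. The difference was 3.21 ± 0.20, with a similar size in striatum (3.34) and cortex (3.09). Gpr83, a G protein-coupled receptor, differed by 3.21 ± 0.27, with levels of 15.60 and 15.38 in striatal and 10.59 and 9.39 in cortical Pvalb-high arrays, against 12.49 and 13.23 in striatal and 6.18 and 6.24 in cortical Pvalb-low arrays. Kcnc2 encodes Kv3.2, the partner of Kv3.1, Lgi2 a secreted synaptic protein, and Cntnap4 a neurexin-like protein of interneuron synapses.

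Among the genes set apart lower, the 12 largest differences belonged to Neu4, Tmem255b, Vcan, Cspg4, Epas1, Aspa, Ednrb, Cyp2j6, Bmp4, Ppfibp1, Lims2 and Cyp2j9, with differences of -4.03 to -3.30. Epas1, a hypoxia-responsive transcription factor, was at 7.57 to 9.07 in the Pvalb-high and 11.10 to 12.45 in the Pvalb-low arrays. Ednrb, the endothelin B receptor of several glial cells, was at 8.98 to 9.62 in the Pvalb-high and 11.83 to 13.56 in the Pvalb-low arrays. Others, such as Neu4, Cspg4, Aspa and Bmp4, are known from the oligodendrocyte lineage.

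Oligodendrocyte precursor genes had the lowest median of all lists, at -2.86. Of 12 tested (15 listed), 11 were set apart lower and 0 higher; Pdgfra shares its cluster with another symbol and was not used. Neu4, a sialidase, had 8.37 and 8.57 in striatal and 9.12 and 8.75 in cortical Pvalb-high arrays, against 13.42 and 12.49 in striatal and 12.14 and 12.87 in cortical Pvalb-low arrays. The highest Pvalb-high value lay well under the lowest Pvalb-low value, and the difference was -4.03 ± 0.24. Cspg4, the NG2 proteoglycan itself, had 6.99 and 6.15 in striatal and 7.60 and 8.17 in cortical Pvalb-high arrays, against 11.37 and 10.09 in striatal and 10.88 and 11.28 in cortical Pvalb-low arrays. Its difference was -3.68 ± 0.31, and 1 of the 4 Pvalb-high arrays was under the highest background probe set. Vcan and Ptprz1, further matrix and receptor proteoglycans, differed by -3.84 ± 0.27 and -3.05.

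Genes of the next stage were lower too. Of 12 genes of newly formed oligodendrocytes tested (14 listed), 11 were set apart lower and 0 higher, with a median of -1.81. Bmp4, a growth factor made at this stage, was at 8.88 to 9.32 in the Pvalb-high and 11.72 to 13.08 in the Pvalb-low arrays. Gpr17, a receptor that marks cells about to mature, was at 11.62 to 12.39 in the Pvalb-high and 14.51 to 14.79 in the Pvalb-low arrays. Bcas1 differed by -2.82 and Enpp6, a phosphodiesterase of early myelinating cells, by -2.27.

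Myelin protein genes were lower as well. Of 19 tested (20 listed), 18 were set apart lower and 0 higher, with a median of -2.08. Mog, a protein of the outer myelin surface, had 12.37 and 11.78 in striatal and 12.77 and 12.27 in cortical Pvalb-high arrays, against 14.16 and 14.34 in striatal and 14.90 and 14.66 in cortical Pvalb-low arrays. It differed by -2.22 ± 0.17, and Mbp, which compacts myelin, by -1.68 ± 0.18. Even in the Pvalb-high arrays Mag, Cldn11 and Opalin, all proteins of the myelin sheath, stayed at 14.38 or more. Ndrg1 and Ermn, a stress-linked and a cytoskeletal gene of mature oligodendrocytes, differed by -3.11 and -2.93.

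Regulators and enzymes of the lineage ran in the same direction. Of 14 transcription factors tested (15 listed), 10 were set apart lower and 0 higher, with a median of -1.89: Olig2, needed to form the lineage, differed by -2.75 ± 0.25, Sox10, which turns on myelin genes, by -2.33 ± 0.18, Nkx2-2 by -2.89 and Myrf by -2.08. Olig1 did not overlap between the sides but differed by only -0.92. Of 27 enzyme, transporter and junction genes tested (30 listed), 22 were lower and 0 higher, with a median of -1.97. Aspa, which splits N-acetylaspartate, had 9.73 and 9.81 in striatal and 10.59 and 10.82 in cortical Pvalb-high arrays, against 12.94 and 13.15 in striatal and 14.46 and 14.30 in cortical Pvalb-low arrays.

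**Figure D3:**
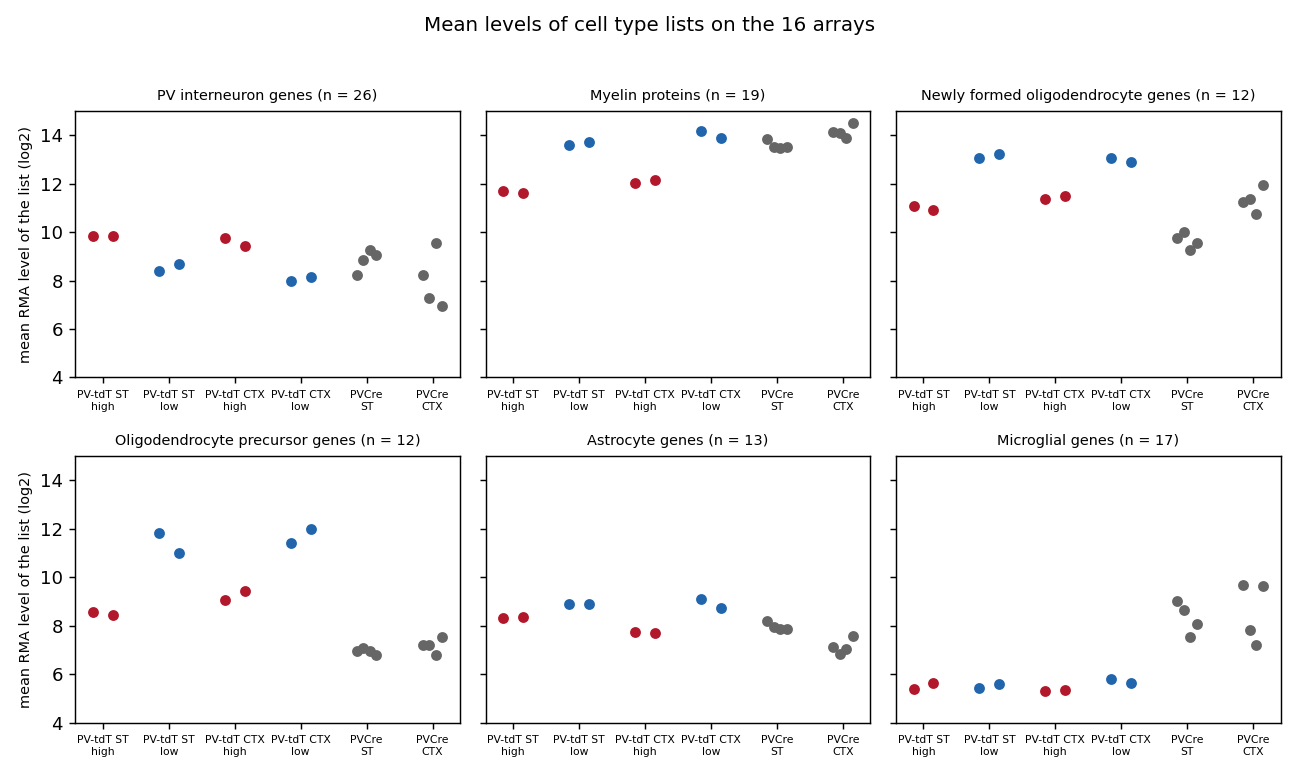
Mean log2 level of 6 marker lists (vertical axis) on each of the 16 arrays, 1 point per array, with Pvalb-high left of Pvalb-low in each region of the PV-tdTomato line and PVCre arrays in grey. The precursor list spans 8.42 to 9.44 in the Pvalb-high and 10.98 to 11.99 in the Pvalb-low arrays, and the microglial list overlaps, at 5.29 to 5.65 in the Pvalb-high and 5.44 to 5.80 in the Pvalb-low arrays.

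Averaged over each list, the levels can be set beside those of the PVCre line. The mean level of the 12 precursor genes was 8.42 to 9.44 in the Pvalb-high and 10.98 to 11.99 in the Pvalb-low arrays, and 6.79 to 7.55 on the 8 PVCre arrays. That of the 19 myelin genes was 11.60 to 12.15 in the Pvalb-high and 13.61 to 14.17 in the Pvalb-low arrays, and 13.46 to 14.49 on the PVCre arrays. For the 26 parvalbumin interneuron genes it was 9.43 to 9.82 in the Pvalb-high and 8.0 to 8.67 in the Pvalb-low arrays. On the PVCre arrays it was 6.94 to 9.57. Pvalb, which chose the sides, is among these 26. The precursor list was thus above its PVCre range on both sides of the split. The myelin list was within its PVCre range in the Pvalb-low arrays and under it in the Pvalb-high arrays. The difference between lines was not tested. The part of glial RNA in the other differences between the sides was not tested.

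Genes of the contact between axon and myelin ran in both directions. Of 14 node and paranode genes tested (14 listed), 5 were set apart higher and 4 lower, with a median of 0.42. Cntnap1, the axonal paranode protein, was at 10.75 to 11.75 in the Pvalb-high and 7.96 to 9.45 in the Pvalb-low arrays, and Cntnap2, which holds potassium channels beside the node, differed by 2.83. Cntn2, made by both axons and oligodendrocytes, differed by -2.03, Jam3, a junction protein, by -1.99 and Nfasc, which anchors the node, by -1.03.

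The perineuronal net list ran against the interneuron genes. Of 15 tested (18 listed), 7 were set apart lower and 2 higher, with a median of -0.80. Acan, the aggrecan core of the net, had 7.76 and 7.54 in striatal and 7.33 and 7.56 in cortical Pvalb-high arrays, against 9.98 and 9.26 in striatal and 9.22 and 9.81 in cortical Pvalb-low arrays. The difference was -2.02 ± 0.20 with no overlap. Of the 7 lower members, Vcan, Tnr and Ptprz1 also stand in the precursor list, with differences of -3.84, -2.81 and -3.05. Hapln2 and Adamts4, also tested in the net list, stand in the list of oligodendrocyte enzymes, transporters and junctions too. Set apart higher were Hapln4, a link protein (1.84), and Crtac1, a matrix protein (1.54).

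Other glial and vascular lists differed less. Of 13 astrocyte genes tested (16 listed), 6 were set apart lower and 0 higher, with a median of -0.76 and list means of 7.68 to 8.35 in the Pvalb-high and 8.72 to 9.11 in the Pvalb-low arrays; S100b, a calcium-binding protein also made by oligodendrocytes, differed by -2.64 and Slc1a3, a glutamate transporter, by -2.22. Aqp4 and Aldh1l1, markers that define astrocytes, were close to background, at 5.97 to 6.48 and 5.56 to 5.73 in the Pvalb-high and 6.36 to 6.92 and 5.87 to 6.22 in the Pvalb-low arrays. Of 17 microglial genes tested (18 listed) 0 were set apart in either direction, with a median of -0.18, and Csf1r and P2ry12 were at 5.42 or less on all 8 arrays. Of 13 endothelial genes tested (14 listed), only Slc2a1, a glucose transporter, was set apart, with a difference of -1.46. Pericyte genes had 0 of 8 set apart (13 listed), and ependymal genes had 1 of 13 higher, Fam183b (14 listed).

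Markers of other neurons were measured because the sort could hold them. Of 12 genes of the Sst, Npy and Nos1 interneurons tested (13 listed), 4 were set apart higher and 0 lower. The median of the 12 was 1.06. Th is among the 4, whereas Sst and Npy themselves were not set apart. Of 16 genes of Vip, Cck and neurogliaform interneurons tested (17 listed), 9 were higher and 0 lower, with a median of 1.47. Th, an enzyme of dopamine synthesis that also marks a class of striatal interneurons, had 14.10 and 14.14 in striatal and 9.02 and 8.24 in cortical Pvalb-high arrays, against 11.09 and 11.06 in striatal and 6.76 and 6.46 in cortical Pvalb-low arrays. Vip, a peptide of another cortical class, had 14.82 and 15.31 in the cortical Pvalb-high arrays, against 9.55 and 12.54 in the cortical Pvalb-low arrays, and was at 6.44 or less in striatum. Npy was at similar levels in cortex, at 17.37 and 16.76 in the Pvalb-high and 17.43 and 17.06 in the Pvalb-low arrays, and differed by -2.09 in striatum, with 12.65 and 11.82 in the Pvalb-high and 14.13 and 14.52 in the Pvalb-low arrays.

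Projection neuron lists differed little. Of 16 striatal projection neuron genes tested (20 listed), 1, Bcl11b, was set apart higher and 0 lower, with a median of 0.28, and of 12 cortical pyramidal genes tested (17 listed), 2 were higher (Camk2a and Rasgrf2) and 1 lower (Rorb), with a median of 0.04 (0.07 without replicate 3). Camk2a, a kinase of excitatory neurons, was at 12.94 to 13.63 in the Pvalb-high and 10.77 to 11.97 in the Pvalb-low arrays. Slc17a7, the vesicular glutamate transporter of cortical pyramidal cells, was at 7.29 to 8.22 in the Pvalb-high and 6.47 to 8.32 in the Pvalb-low arrays, and overlapped.

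Immediate early and stress genes had medians of -0.04 (22 tested of 24 listed; -0.07 without replicate 3) and 0.51 (13 tested of 18 listed). Among the first, Npas4, which responds to neuronal activity, was set apart higher by 1.62, whereas Fosb, Jun, Nr4a1 and Arc were set apart lower, with differences of -1.63, -1.34, -1.41 and -1.20. Of the stress genes, Hspa1a, a heat shock protein, was higher by 1.38 and Atf4, a stress transcription factor, by 1.10. Cholesterol synthesis genes had 0 of 16 set apart in either direction (20 listed) but a median of -0.68.

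Whether the split looked alike in both regions was tested in limma as the striatal difference minus the cortical difference, a contrast at right angles to the one that chose the members. After Benjamini-Hochberg adjustment over 20095 genes, 128 genes passed the threshold of 0.05 (0.637%): in 46 (0.229%) the striatal difference was the more positive and in 82 (0.408%) the cortical one. After quantile normalization the counts were 53 and 152, and with the replicate number as a block 41 and 62, of which 30 and 49 were among the first. Of the 128, 29 were also set apart higher, 7 lower, and 92 not. Since pools and not single mice are the samples, the p-values reflect pool-to-pool spread, which may be partly technical. Many calls were lost when any single array was left out, and all were lost without both arrays of any replicate number. Those fits rest on fewer arrays, with a lone array in some region and side, and the reason for the loss was not tested.

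Sst, the peptide of the somatostatin interneurons, had the largest negative interaction. It had 12.86 and 12.27 in striatal and 13.99 and 13.07 in cortical Pvalb-high arrays, against 13.53 and 13.56 in striatal and 9.57 and 8.72 in cortical Pvalb-low arrays. The cortical difference was thus 4.39 and the striatal one -0.98, an interaction of -5.37 ± 0.52 (limma adjusted p = 0.00979). Fitted with all 16 arrays, whose spread then includes the PVCre line, the adjusted p was 0.314.

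**Figure D4:**
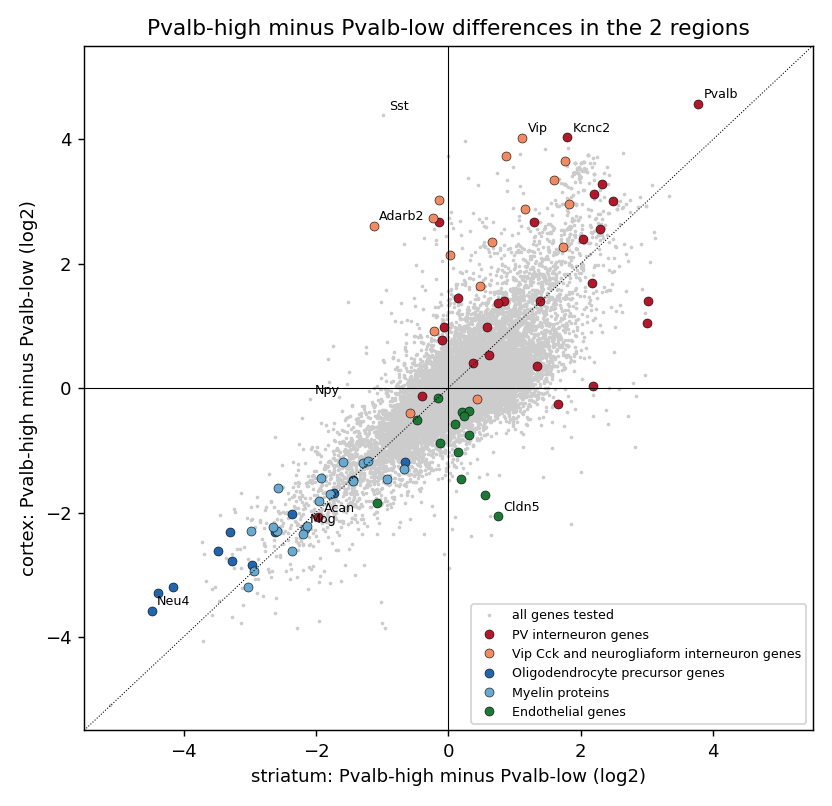
Difference between Pvalb-high and Pvalb-low arrays in cortex (vertical axis) against that in striatum (horizontal axis), log2 units, 1 point per gene tested, with members of 5 lists coloured, equal differences on the dotted line and some genes named. Sst lies at -0.98 in striatum and 4.39 in cortex, far from the line, and Cldn5 at 0.74 in striatum and -2.06 in cortex.

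Among the other genes whose cortical difference was the more positive, Adarb2 and Nr2f2 are known from cortical interneurons of the caudal eminence. Adarb2, a relative of the RNA-editing enzymes, had 6.87 and 7.21 in striatal and 13.88 and 14.13 in cortical Pvalb-high arrays, against 8.29 and 8.05 in striatal and 11.09 and 11.70 in cortical Pvalb-low arrays (interaction -3.74, adjusted p = 0.0067). Nr2f2, a transcription factor, was in the background in striatum, at 6.08 or less, and differed by 3.03 in cortex (adjusted p = 0.0155). Pde5a, a cGMP phosphodiesterase, was likewise at 5.96 or less on all striatal arrays and differed by 3.73 in cortex (adjusted p = 0.0042, and 0.464 with all 16 arrays). Igfbp5, which binds insulin-like growth factors, and Asic4, an acid-sensing channel relative, had interactions of -3.07 and -2.98. The Vip, Cck and neurogliaform list held 4 negative calls (Adarb2, Nr2f2, Reln and Cxcl14) and the Sst, Npy and Nos1 list 3 (Sst, Elfn1 and Npy2r), with medians of 2.67 and 1.88 in cortex and 0.57 and 0.18 in striatum; Reln lost its call with all 16 arrays (adjusted p = 0.0773). Kcnc2 also passed, with a difference of 1.79 in striatum and 4.03 in cortex (interaction -2.24, adjusted p = 0.0304), but lost the call with the replicate block (adjusted p = 0.0506) and with all 16 arrays (adjusted p = 0.8).

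In the positive direction, Pla2g7, a phospholipase that degrades platelet-activating factor, had 10.72 and 10.88 in striatal and 6.93 and 6.52 in cortical Pvalb-high arrays, against 8.95 and 8.95 in striatal and 9.0 and 8.82 in cortical Pvalb-low arrays. Its interaction was 4.03 (adjusted p = 0.00357), with opposite directions in the 2 regions. Mc4r, the melanocortin receptor of energy balance, had 9.88 and 10.54 in striatal Pvalb-high arrays, against 7.27 and 7.49 in striatal Pvalb-low arrays, and was at 6.56 or less in cortex (interaction 3.77, adjusted p = 0.0067). Trh, the thyrotropin-releasing hormone precursor, had 11.85 and 12.15 in striatal Pvalb-high arrays, against at most 9.33 in striatal Pvalb-low arrays, with cortical values of 5.38 or less (interaction 2.96, adjusted p = 0.0105). Chml and Opn3, a Rab escort protein and a non-visual opsin, had interactions of 3.15 and 2.98, and Ly6c2, a surface antigen, 3.00. With all 16 arrays in the fit, adjusted p was 0.108 for Mc4r, 0.194 for Chml, 0.62 for Ly6c2 and 0.0566 for Opn3, so these calls were lost, whereas Pla2g7 (0.00513) and Trh (0.0204) kept theirs. Lhx8, a factor of cholinergic and some other striatal interneurons, differed by 2.43 in striatum and was at 6.28 or less in cortex (adjusted p = 0.00979).

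**Figure D5:**
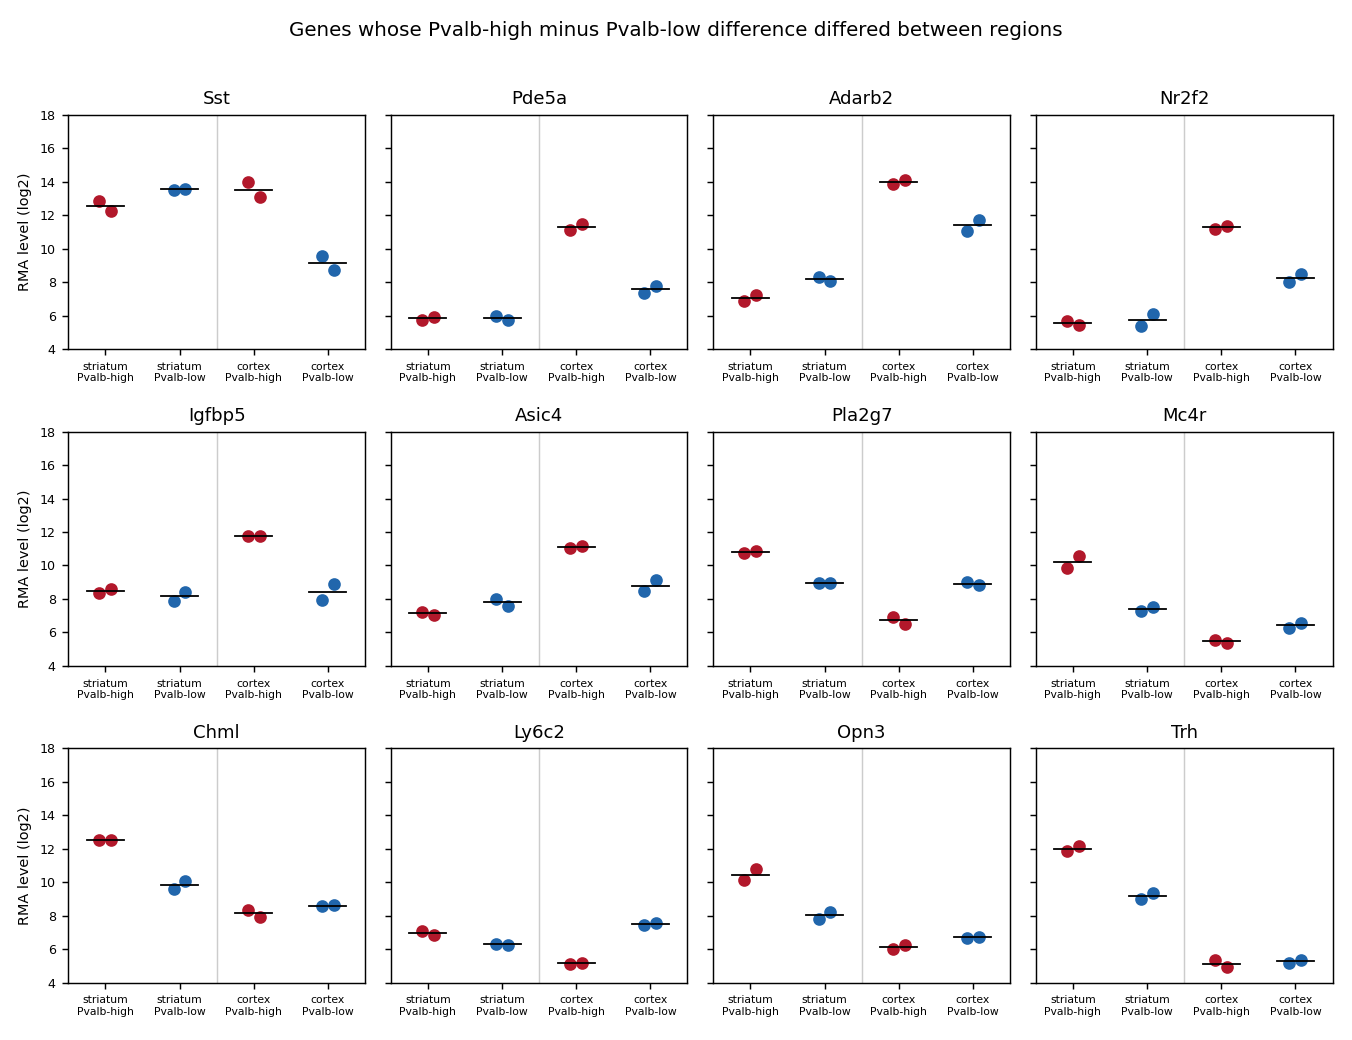
Log2 level (vertical axis) of the 12 genes with the largest split-by-region interactions on each PV-tdTomato array, Pvalb-high left of Pvalb-low within each region; points are arrays and bars are means of 2. Pla2g7 is higher in striatal and lower in cortical Pvalb-high arrays, and Nr2f2 stays at 6.08 or less on all striatal arrays.

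The 128 calls were of several kinds. In 28 the larger of the 2 differences was the striatal one, with the higher level in the Pvalb-high arrays. In 71 it was the cortical one, again with the higher level in the Pvalb-high arrays. In 14 and 17 of these the other region lay in background. In 11 and 18 the larger difference, in striatum and in cortex, was a lower level in the Pvalb-high arrays. In 25 calls the regions differed in opposite directions, by at least 0.5 each and with a side above background in each region. Among these was the endothelial junction gene Cldn5, at 6.96 and 6.64 in striatal and 5.35 and 5.57 in cortical Pvalb-high arrays, against 6.23 and 5.88 in striatal and 7.20 and 7.84 in cortical Pvalb-low arrays (interaction 2.80, adjusted p = 0.0162, and 0.327 with all 16 arrays). Astrocyte gene Slc1a3 had an interaction of 2.41 (adjusted p = 0.0113), with differences of -1.02 in striatum and -3.43 in cortex. The split difference of these glial and vascular genes differed between the regions, and their part in the other calls was not tested.

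The region effect, averaged over both sides, was the other test. In limma, 979 genes were higher (4.87%) and 663 lower (3.3%) in striatum than in cortex after adjustment, and 112 of the 128 interaction genes were among them. The genes named by rank kept their calls in all alternatives run. Without replicate 3 of both regions, 461 were higher and 304 lower.

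Crabp1, a retinoic acid binding protein of striatal interneurons, had 15.09 and 15.42 in striatal Pvalb-high and 11.66 and 12.91 in striatal Pvalb-low arrays, against 7.97 and 8.61 in cortical Pvalb-high and 6.93 and 7.23 in cortical Pvalb-low arrays. It was higher in striatum by 6.09 ± 0.28 (adjusted p = 1.34e-05), and it was also set apart by the split. Tmem212, a gene of the ependymal and motile cilia list, was at 10.86 or more on striatal and 5.91 or less on cortical arrays (adjusted p = 1.05e-06). Its cortical values lay in background, so the difference was at least 5.14. Of the 13 genes tested in that list, which marks the cells lining the ventricles, all 13 were higher in striatum in limma. Their mean level was 8.16 to 9.12 on striatal and 5.55 to 5.73 on cortical arrays, and their part in the region effect was not tested. Th differed by 4.98 ± 0.17 (limma adjusted p = 6.29e-06) and Trh, in background in cortex, by at least 3.97. Gpr83 differed by 6.08 and Il1rapl2, a synaptic adhesion protein, by 4.75. In cortex, Gpr83 had a Pvalb-low mean of 6.21, close to background. Il1rapl2 had cortical means of 6.57 in the Pvalb-high and 5.52 in the Pvalb-low arrays, also close to background.

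In the other direction Vip, in background on all striatal arrays, was lower there by at least 6.45 on the log2 scale (adjusted p = 0.00015). Also lower in striatum were Cxcl14, a chemokine, at -5.82, and Adarb2, at -5.10. Reln, a secreted matrix protein of superficial interneurons, had a region difference of -4.38, at 6.46 to 6.76 on striatal and 9.82 to 12.22 on cortical arrays. Tac2, a neurokinin precursor, had -4.20, and Rxfp1, the relaxin receptor, in background on all striatal arrays, was lower there by at least 3.02. These limits set the region in background at the level of the highest background probe set. Pvalb itself did not pass for region, with a difference of 0.37 ± 0.30 (adjusted p = 0.538), which does not show that the regions were equal, and neither did Gad1 at 0.17 ± 0.16 (adjusted p = 0.605) or Mog at -0.49 ± 0.17 (adjusted p = 0.138).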

How the data were processed

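Levels are log2 expression values that the authors deposited, summarised by RMA with Affymetrix Expression Console as named in the submitters' processing notes; its version, and which arrays were normalized together, is not given in the sources used here. Platform annotation gave 30604 of 65956 transcript clusters a single gene, 2146 several and 33206 none listed, and only the first were used; 827 symbols were updated by Entrez number. For the 355 genes with more than 1 cluster, the cluster with the highest mean stood for the gene. The 33.3% of 30142 genes with the lowest mean over 16 arrays (under 5.53) were left out, leaving 20095. Microarrays give no read depth; the number of arrays limits precision. No arrays held identical values.

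limma 3.58.1 in R 4.3.3 (lmFit, eBayes) was fitted to the 8 PV-tdTomato arrays with 1 mean per region and side, and p-values of the interaction and region contrasts were adjusted by Benjamini-Hochberg at 0.05. The split received differences and SE only. The fit was tested on simulated data. Genes were named by rank: the 12 largest differences in each direction among genes set apart, the 6 largest interactions and region effects in each direction past the threshold, up to 6 members of each gene list by size of the split difference with 2 in the other direction, and a few fixed genes; predicted models were left out. The members and lists were chosen with earlier results of these data known. Genes and miRNA loci named outside this rule were chosen after their values were seen.

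Same-numbered arrays of the 2 regions correlated in their deviations from region and side means. Across genes, r was 0.143 (replicates 1 and 2) and 0.225 (replicates 3 and 4). With 2 arrays per region and side the deviations mirror each other, so each side gives only 1 value of r. The main fit did not use the replicate numbers as pairs, and the block on them was an alternative. Alternatives were other size thresholds and filters, every single-gene cluster, quantile normalization, median centring, a trended robust prior, array weights, all 16 arrays, the replicate block and arrays left out. Sequences and positions of miRNAs are from RefSeq. Figures were drawn with matplotlib 3.10.9 from tables made in pandas 2.3.3 (Python 3.11.15).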

Additional observations from a re-analysis of the deposited data

Results flagged for a closer look

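Among 140 gene and list groups of 4 arrays, 9 held an array far from the other 3 of its region. Each group joins Pvalb-high and Pvalb-low arrays, and many of the genes were named because these differ, so no chance rate is given. All 9 were Xist or Y-linked values of replicate 3. In striatal replicate 3, Xist was 15.93 (the others 5.71 to 6.04), Eif2s3y 5.75 (9.54 to 9.98), Kdm5d 5.90 (9.20 to 9.59), Uty 6.15 (9.43 to 9.74) and the Y-linked mean 5.93 (9.41 to 9.77). In cortical replicate 3, Xist was 16.01 (5.75 to 5.98), Kdm5d 5.78 (9.28 to 9.62), Uty 6.15 (9.39 to 9.80) and the Y-linked mean 6.10 (9.38 to 9.89).

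The difference between Pvalb-high and Pvalb-low arrays itself differed between the regions, by the limma interaction, in the 12 genes named by rank. The striatal minus the cortical difference was 4.03 for Pla2g7, 3.77 for Mc4r, 3.15 for Chml, 3.00 for Ly6c2, 2.98 for Opn3 and 2.96 for Trh. It was -5.37 for Sst, -3.74 for Pde5a, -3.74 for Adarb2, -3.17 for Nr2f2, -3.07 for Igfbp5 and -2.98 for Asic4.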

How the results depend on the processing

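With 2 arrays per region and side, precision is limited by array number and, near background, by signal. At a minimum difference of 0.5 the split set apart 2975 genes higher and 2360 lower, and at 2, 336 and 200. With arrays left out, the split counts ranged over 1214 to 1658 higher and 987 to 1093 lower. Leaving out 1 array gave 10 to 33 positive and 11 to 57 negative interaction calls, and 623 to 1013 genes higher and 392 to 582 lower in striatum. Leaving out both arrays of a number gave 0 interaction calls in limma in either direction (1748 to 3535 genes at an unadjusted p under 0.05), and region calls, for numbers 1 to 4, of 580, 398, 461 and 473 higher and 294, 257, 304 and 290 lower. Fewer arrays enter these fits, and a lone array of a region and side is assumed to vary like the others. Quantile normalization gave 152 negative and 53 positive interaction calls, a positive share of 25.9% against 35.9%. In the split it gave 1120 genes higher and 1187 lower, and the differences of Gad1, Mog and Aspa became 1.43, -2.61 and -3.765. With all 16 arrays, 16 interaction calls were positive and region calls were 552 higher and 328 lower. The block on the replicate number moved no count by over 1.5 times (41 positive, 62 negative; region 970 and 559), and none of the genes named by rank lost its call, but only 30 of the 46 positive and 49 of the 82 negative interaction calls were also made with the block. Without replicate 3 of both regions the split differences of Eif2s3y (-0.65), Kdm5d (-0.30) and Uty (-0.28) reversed. Over the alternatives, the 12 interaction genes lost their call 77 times and kept it 175 times, and the 12 region genes kept theirs in all 251 cases run.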

Other observations

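Outside the chromosome 12 window, further microRNA loci were set apart by the split. Mir384 was higher by 1.71 ± 0.16 (SE) in the Pvalb-high arrays, Mir138-2 by 1.45 ± 0.24 and Mir153 by 1.23 ± 0.16. Mir100, with a mean of 7.39 ± 0.23 in the Pvalb-high and 9.02 ± 0.42 in the Pvalb-low arrays (SD, n = 4 each), differed by -1.63 ± 0.18, and Mir340 by -1.52 ± 0.35. Host transcripts can carry signal at these loci, which was not tested.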
